A study of Mus musculus with 2 samples.

Results

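The pericentromeric ends of the mouse autosomes were examined as the array probes of chromosomes 1 to 19, without chromosome 12, that start below 4.5 Mb on the mm9 build. These were 1623 of the 170305 probes present on both arrays, and 1622 of them were kept, as 1 was left out as an outlier-flagged spot. They fell into 17 ends, because the first probe of chromosome 14 starts at 8526343 and that chromosome has no probe in the range. Each end held between 53 probes, on chromosome 3, and 143 probes, on chromosome 11. The first probe of an end started between 3000029 and 3257712, so what lies closer to the centromere was not measured.

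Mouse autosomes carry the centromere at one tip. The centromere is built of minor satellite repeats and is flanked by blocks of major satellite repeats, which form heterochromatin and are missing from the assembly. The unique sequence of a chromosome therefore begins next to a large repeat block, and recently duplicated sequence is frequent in such places. Comparative genomic hybridization (CGH) reads copy number as the ratio of 2 DNAs that compete for the same probe, and a probe whose sequence occurs several times in the genome reads all copies together.

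Genomic DNA of 2 androgenetic haploid embryonic stem cell (AG-haESC) lines was hybridized against that of AGH-OG-3, the parental AG-haESC line. The lines H19Δ1 and H19Δ2 carry a deletion of the H19 transcription unit and its imprinting control region with a loxP-flanked PGK-neo cassette in its place. It was made with a targeting plasmid and Cas9 plasmids bearing sgRNA-4 and sgRNA-7, followed by G418 selection. AGH-OG-3 lacks this deletion. The Oct4-eGFP transgene of AGH-OG-3 is shared by all 3 DNAs. Each H19Δ line is 1 clone enriched for haploid cells by sorting, and all cells were grown in serum with LIF, CHIR99021 and PD0325901 and were allowed to settle to deplete feeder cells. On each array the H19Δ DNA was labelled with Cy5 and the reference DNA with Cy3.

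There was 1 array per line, both on 1 slide and in 1 scan, and the dyes were not swapped. No difference could therefore be tested, each ± is an SD over probes, and a difference between lines cannot be told apart from one between arrays. A value is the log2 of Cy5 over Cy3, centred on the median autosomal probe, so that 0 is the typical autosomal level, and the 2 comparisons share the AGH-OG-3 DNA. Neighbouring probes gave a noise of 0.12 per probe on each array. Of all autosomal and X probes, 2 were below -2 on both arrays and both lay on chromosome 7, which carries the targeted H19 locus. The ends' probes were all unsaturated and well above background, while 67 probes of the rest of these autosomes were not well above it. The ends were about as densely covered as the rest, with a median distance between neighbouring probes of 10647 bp against 10838 bp, and their median Cy3 signal was 1035 against 1036 on the array of H19Δ1.

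In H19Δ1, all 17 ends lay near the autosomal level. The mean of an end lay between -0.04 on chromosome 5 and 0.04 on chromosome 17. None of the 17 ends reached a mean of 0.2 in size, against 0.0668% of 1498 other windows of 1.5 Mb on these autosomes at 0.2 or more and 0.334% at -0.2 or less. The chromosome 17 end, at 0.0386 ± 0.15 over 85 probes, was the single end outside the range between the 2.5 and 97.5 percentiles of those windows, which ran from -0.0451 to 0.0360. It was also the end with the largest SD over probes in this line.

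In H19Δ2, a single end stood apart. The chromosome 6 end had a mean of 0.25 ± 0.23 over 96 probes, against -0.01 ± 0.13 in H19Δ1, and it was the single end of 17 at 0.2 or more, where 0.401% of the other windows were. No end was at -0.2 or less, where 0.2% of the other windows were. The other 16 ends lay between -0.08 and 0.03. The chromosome 5 end, at -0.08 ± 0.11 over 99 probes, lay below the same range of the windows, which here ran from -0.07 to 0.09. The same end was at -0.04 ± 0.12 in H19Δ1, and the rest of chromosome 5 had a median of -0.04 in H19Δ2.

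**Figure D1:**
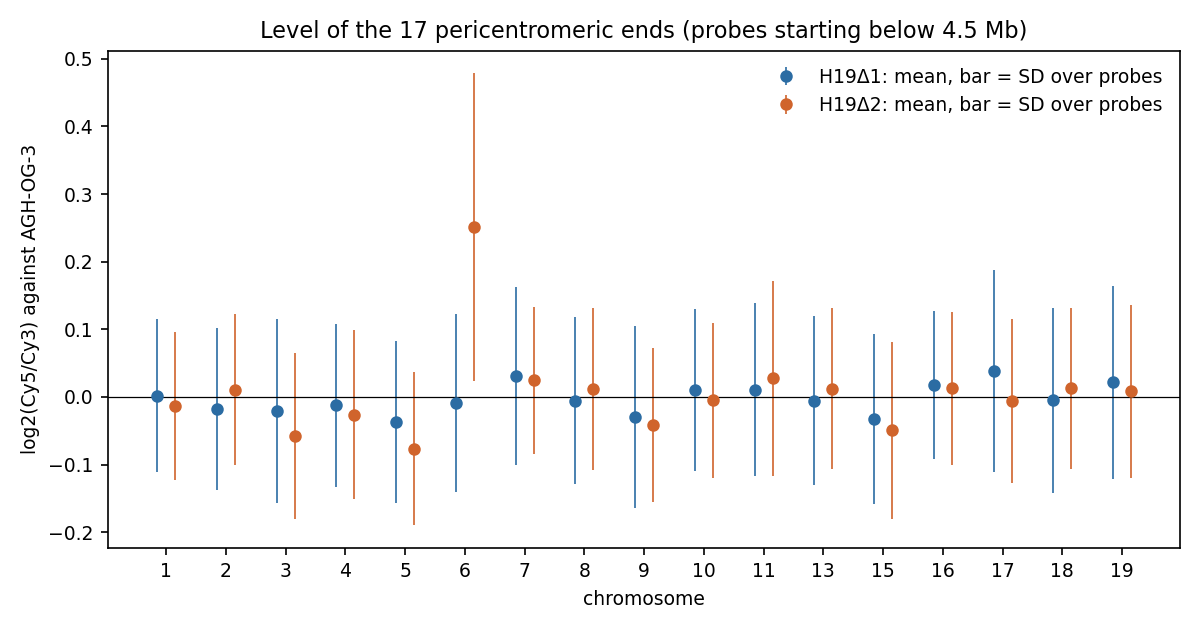
Mean log2(Cy5/Cy3) against AGH-OG-3 (vertical axis) of the 17 ends by chromosome (horizontal axis), in H19Δ1 (blue) and H19Δ2 (orange), with bars for the SD over the probes of the end. The chromosome 6 end of H19Δ2, at 0.25, stands above all others, which lie between -0.08 and 0.04 in both lines.

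The difference between the lines, H19Δ2 minus H19Δ1, was also largest on chromosome 6. It was 0.26 ± 0.23 on chromosome 6, and this was the single end at 0.2 or more in size, against 0.534% of the other windows at 0.2 or more and 0.267% at -0.2 or less. The next in size were chromosome 17 at -0.04 ± 0.14, with 0.04 in H19Δ1 and -0.01 in H19Δ2, and chromosome 5 at -0.04 ± 0.11. The smallest differences were on chromosome 16, at -0.01 ± 0.12 with 0.02 in H19Δ1 and 0.01 in H19Δ2, on chromosome 7, at -0.01 ± 0.14 with 0.03 and 0.02, and on chromosome 9, at -0.01 ± 0.12 with -0.03 and -0.04. The 16 ends other than chromosome 6 had an SD of 0.02 in the difference. The other windows had an SD of 0.06, or a robust SD of 0.02 when windows with large shifts count little.

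Single probes were then counted at 0.3 or more in size. In H19Δ1, 25 probes of the ends were at 0.3 or more (1.54%, against 1.18% of all probes of these autosomes) and 17 at -0.3 or less (1.05%, against 1.34%). In H19Δ2, 45 were at 0.3 or more (2.77%, against 1.41%) and 19 at -0.3 or less (1.17%, against 1.35%), and 33 of the 45 lay in the chromosome 6 end. In the difference, 56 were at 0.3 or more (3.45%, against 1.83%) and 39 at -0.3 or less (2.40%, against 2.25%), with 36 of the 56 in the chromosome 6 end. Outside that end, 12 of 1526 probes were at 0.3 or more in H19Δ2 (0.786%) and 19 at -0.3 or less (1.25%). Both shares of H19Δ2 were then below the background, which still includes chromosome 6. In H19Δ1 the shares without that end were 1.64% high and 0.983% low, against 1.18% and 1.34%. In the difference they were 1.31% high and 2.49% low, against 1.83% and 2.25%. No probe of the ends passed 1 in size in either line, while 63 probes of the rest did. The lowest were at -0.47 in H19Δ1, on chromosome 9 at 3517852, and at -0.49 in H19Δ2, on chromosome 19 at 3836141.

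The case on chromosome 6, from 3131.1 kb to 3571.9 kb, is a segment that the paper lists as higher in H19Δ2 than in AGH-OG-3. It was chosen for its level in H19Δ2, so its values are a description. It spans 27 probes over 441 kb, starting with the first probe of the chromosome. In H19Δ2 its mean was 0.56 ± 0.12, a 1.47-fold Cy5 signal over Cy3. There, 26 of its 27 probes were at 0.3 or more, against 1.41% of all probes of these autosomes. The lowest probe was 0.24, the median 0.57 and the highest 0.75. In H19Δ1 its mean was 0.01 ± 0.11, with the lowest probe at -0.20, the median at 0.01 and the highest at 0.23. The lowest probe in H19Δ2, at 0.241, thus lay just above the highest in H19Δ1, at 0.233. Runs of 27 neighbouring probes were taken outside the ends on these autosomes. Chromosome 12, whose proximal probes had a similar level in H19Δ2, was not among them. Of 5645 such runs, 2 had a mean as high or higher in H19Δ2 (0.0354%). In the difference, 18 did (0.319%). The lowest probe in H19Δ2, the one from 3547189 to 3547247, read 0.14 in H19Δ1. The difference between the lines was 0.55 ± 0.14 and was above 0 at all 27 probes.

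The first probe stood alone, since 145 kb separate it from the second. It read 0.59 in H19Δ2 and 0.05 in H19Δ1, and the second read 0.69 and 0.13. The high ratios thus began at the first measured sequence of the chromosome. The level then fell. The last 3 probes inside read 0.24, 0.47 and 0.55 in H19Δ2, and the first outside, which starts at 3583826, read 0.14, with 11.9 kb between the last probe inside and this one. Single probes outside still reached up to 0.41 in H19Δ2. The 10 probes after the border averaged 0.15 ± 0.16 in H19Δ2 and -0.02 ± 0.12 in H19Δ1. Penalised least-squares segmentation put a border at this place in H19Δ2 and in the difference, and none in the end of chromosome 6 in H19Δ1. The limits of the case are those of the paper's segment from these same arrays, so the border in H19Δ2 is not independent of them. With normexp background correction the border of H19Δ2 lay 3 probes earlier, before 3547189. The case was not bright: its probes had Cy3 signals of 0.13 to 3.24 times the autosomal median on the array of H19Δ1.

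**Figure D2:**
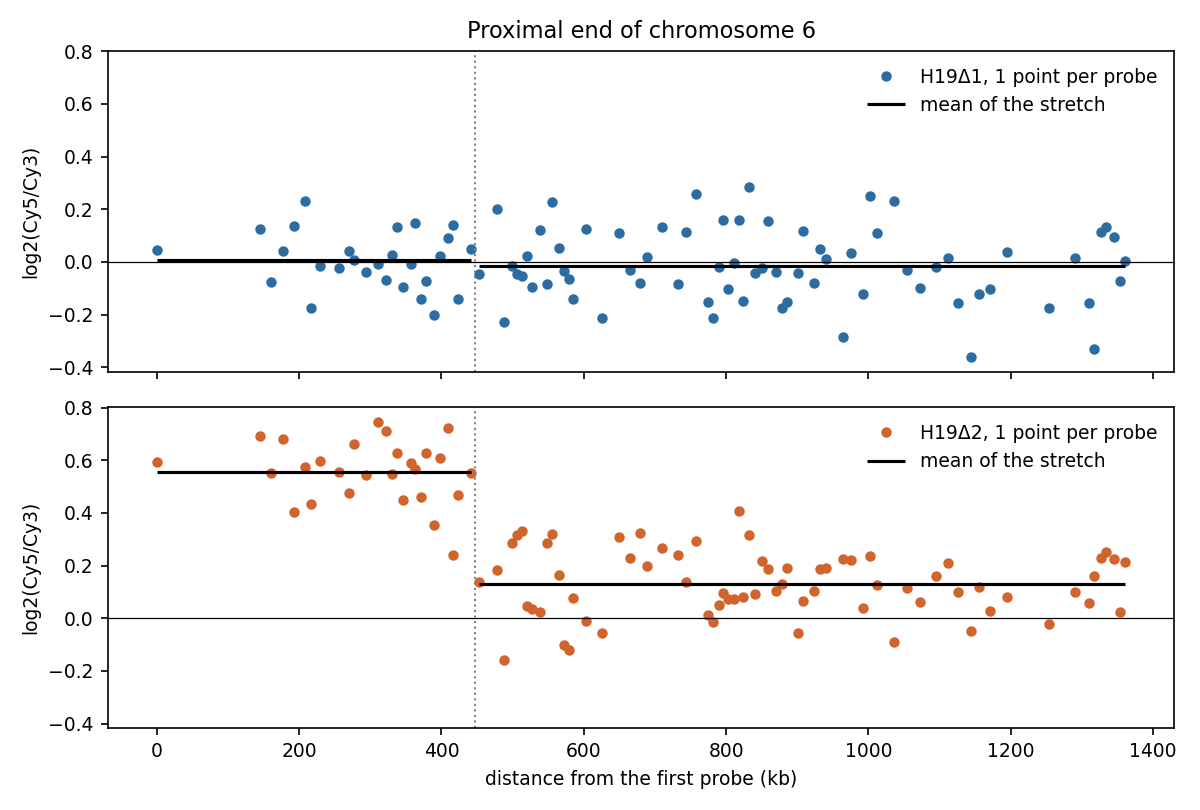
Log2(Cy5/Cy3) of each of the 96 probes of the chromosome 6 end (vertical axis) by distance from the first probe in kb (horizontal axis), in H19Δ1 (top) and H19Δ2 (bottom). Black lines are the means of the 27 probes of the case and of the 69 probes after it, and the dotted line marks the border: H19Δ2 steps from 0.56 to 0.13, while H19Δ1 stays at 0.01 and -0.02.

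Beyond the border H19Δ2 did not return to 0. The other 69 probes of the end averaged 0.13 ± 0.12 in H19Δ2 against -0.02 ± 0.14 in H19Δ1, and 7 of them were at 0.3 or more in H19Δ2 against 0 in H19Δ1. This lower step was far longer than the end itself. Segmentation of H19Δ2 gave a second segment from 3583826 to 39448381, which is 35.9 Mb and 2416 probes, with a mean of 0.14 ± 0.12, a 1.099-fold signal. The same probes were at 0.00 ± 0.12 in H19Δ1. The shift per probe was thus about as large as the noise of a single probe, and it shows as a level of many probes.

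In windows of 1.5 Mb, the 24 windows of the second segment ranged from 0.10 to 0.17 in H19Δ2, while in H19Δ1 they ranged from -0.03 to 0.03. All 24 were higher in H19Δ2 than in H19Δ1, and 23 of them were at 0.1 or more in H19Δ2. The segment was drawn on the values of H19Δ2, so these counts describe it and are not a test. Of 1401 windows outside the ends on the other autosomes, chromosome 12 left out, 5 were at 0.1 or more in H19Δ2 (0.357%). On chromosome 6 itself, 4 of the 74 windows after the second segment were. After 39448381 the level in H19Δ2 was 0.08 up to 47758273. A segment of 3 probes followed, from 47768770 to 47791344, at -0.48 ± 0.76, against -0.35 ± 0.58 in H19Δ1. The level in H19Δ2 was then 0.10 from 47797553 to 51796674 and 0.05 from there to 55761151. The next segment, from 55782881 to 60204117, went opposite ways in the lines, with 0.45 in H19Δ2 and -0.50 in H19Δ1. After it, from 60219654 to 62507568, H19Δ2 was still at 0.07, against -0.01 in H19Δ1. From 62546677 on, the segments of 100 or more probes lay between -0.01 and 0.02 in H19Δ2. In H19Δ1 a single segment ran from the first probe to 55761151 with a mean of 0.00 ± 0.12. The low step was thus read on the array of H19Δ2 and not on that of H19Δ1.

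**Figure D3:**
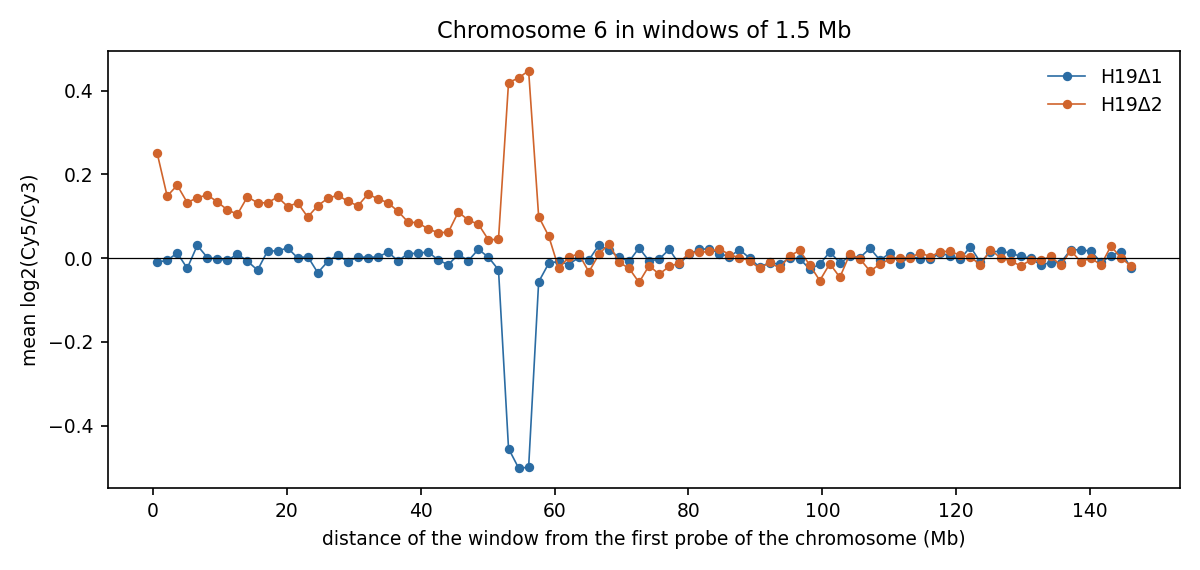
Mean log2(Cy5/Cy3) (vertical axis) of windows of 1.5 Mb along chromosome 6, by distance of the window from the first probe of the chromosome in Mb (horizontal axis), in H19Δ1 (blue) and H19Δ2 (orange). The first window of H19Δ2, at 0.25, is followed by 24 windows between 0.10 and 0.17, while H19Δ1 stays near 0 until the stretch where the lines go opposite ways.

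Chromosome 12 was left out of the ends by the rule, and its proximal probes had a level close to that of the chromosome 6 case. In H19Δ2 its 129 probes below 4.5 Mb had a mean of 0.57 ± 0.15, against 0.02 ± 0.13 in H19Δ1. Of these, 124 were at 0.3 or more in H19Δ2, against 1.41% of all probes of the other autosomes. These probes open a far longer segment that the paper lists as higher in H19Δ2 than in AGH-OG-3.

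The case on chromosome 11, from 3030.8 kb to 3066.3 kb, had another form, with the same probes high in both lines. It holds the first 5 probes of the chromosome over 35.6 kb, and it too was chosen by its values. In H19Δ1 these read 0.00, 0.12, 0.19, 0.45 and 0.58 from the centromeric side, with a mean of 0.27 ± 0.24. In H19Δ2 they read 0.10, 0.17, 0.20, 0.50 and 0.58, with a mean of 0.31 ± 0.22. The ratio rose probe by probe in both lines and then fell to 0.06 in H19Δ1 and 0.19 in H19Δ2 at the sixth probe, which starts at 3074119. Only the fourth and the fifth probe passed 0.3. The difference between the lines was 0.04 ± 0.04 over the 5 probes, within -0.01 and 0.09. The other 138 probes of this end had a mean of 0.00 ± 0.11 in H19Δ1 and 0.02 ± 0.13 in H19Δ2.

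The same probes were among the brightest of these autosomes. Their Cy3 signals, which come from AGH-OG-3 DNA, were 8.57, 13.2, 8.31, 28.6 and 31.2 times the median of the other autosomal probes on the array of H19Δ1. The sixth probe was at 15.8 times and the seventh, which starts at 3091781, at 5.43 times with ratios of -0.06 and -0.04, and the eighth was at 1.36 times. The 2 brightest probes were thus the 2 with the highest ratio. The sixth probe was brighter than the first 3, and its ratio was below the second and the third in H19Δ1 and between them in H19Δ2. The values of the Cy5 channel were 39.2 and 46.7 times the median at the fourth and the fifth probe. The part of brightness in the ratio was not tested. With the ratio corrected by a loess fit on brightness, the mean of the case fell to 0.14 in H19Δ1 and 0.17 in H19Δ2. Segmentation put a border after the fifth probe in H19Δ1 and after the sixth in H19Δ2, and none in the difference. Both borders were lost with a penalty factor of 4 or 8.

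**Figure D4:**
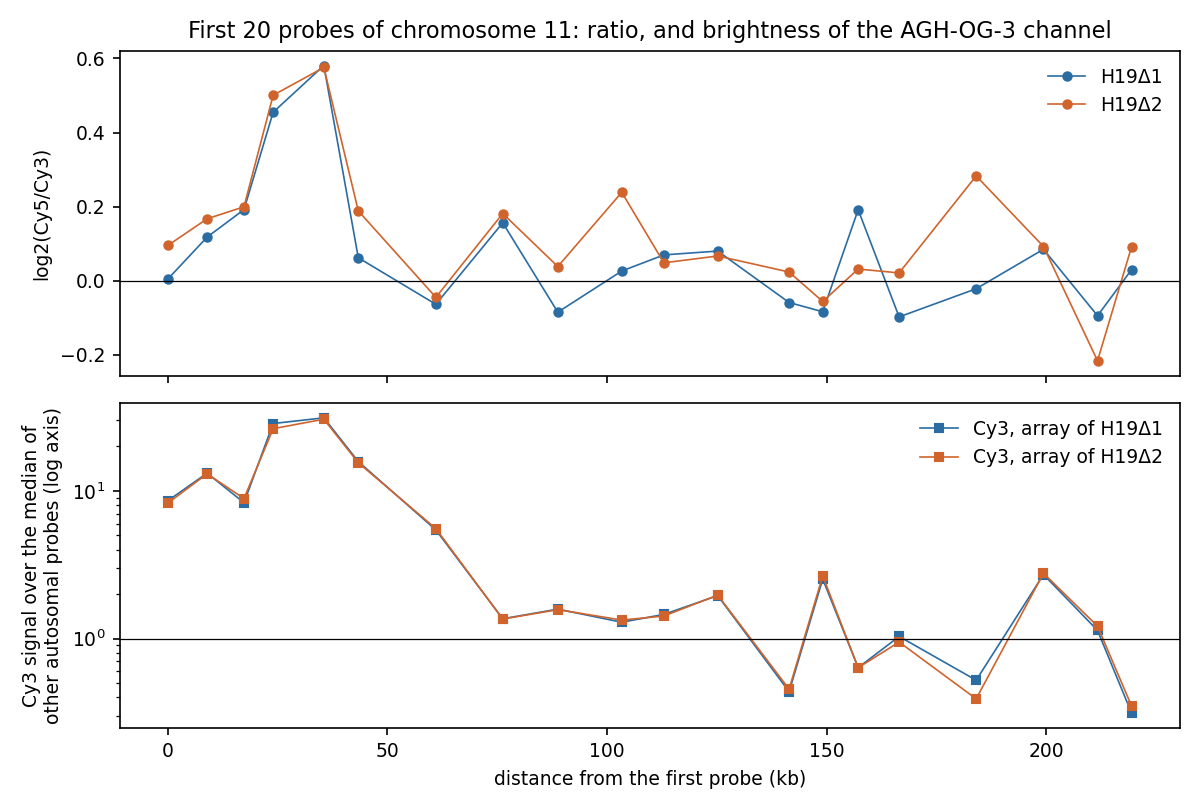
Log2(Cy5/Cy3) (top, vertical axis) and Cy3 signal over the median of the other autosomal probes (bottom, log axis) of the first 20 probes of chromosome 11 by distance from the first probe in kb, on the array of H19Δ1 (blue) and of H19Δ2 (orange). Both lines peak at 0.58 at the fifth probe, where Cy3 is about 31 times the median, and from the eighth probe on none of these 20 probes reaches 0.3 in either line.

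Bright probes made up a larger share of the ends than of the rest, and they came from 2 places. On these autosomes, chromosome 12 left out, 73 probes had a Cy3 signal of 8 or more times the median on the array of H19Δ1. Of these, 7 lay in the ends, which is 0.432% of the ends' probes against 0.0432% of the rest. They were the first 6 probes of chromosome 11 and the first probe of chromosome 9, and all 7 lay below 3250 kb. The chromosome 9 probe, from 3046525 to 3046575, was at 11.05 times the median and read 0.43 in H19Δ1 and 0.38 in H19Δ2. The whole chromosome 9 end was at -0.03 ± 0.13 and -0.04 ± 0.11. The 66 probes this bright outside the ends had a median ratio of 0.12 in each line. They ranged from -0.61 to 0.69 in H19Δ1 and from -0.18 to 0.70 in H19Δ2. The lowest in H19Δ1 lies on chromosome 6 at 58981569, in the segment where the lines went opposite ways. A part of brightness in these ratios was not tested. At 16 or more times there were 3 of the 73 probes, the fourth and the fifth of chromosome 11 and 1 on chromosome 5 at 33071608, which read 0.28 and 0.24.

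**Figure D5:**
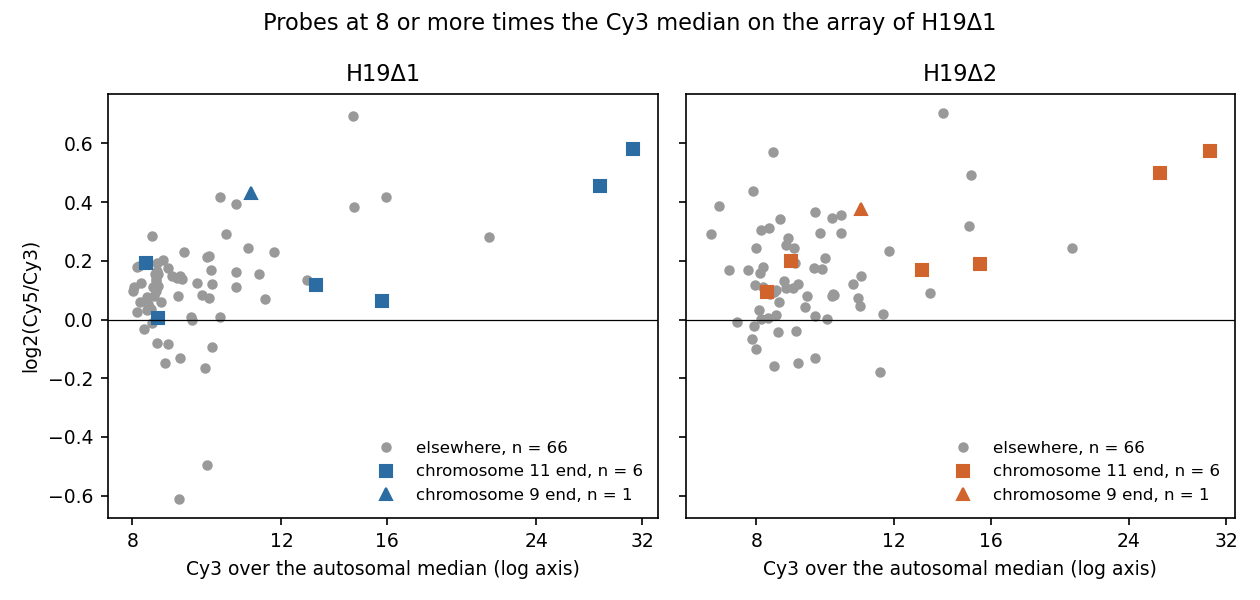
Log2(Cy5/Cy3) (vertical axis) against Cy3 signal over the autosomal median (horizontal log axis) of the 73 probes at 8 or more times the median on the array of H19Δ1, shown for H19Δ1 (left) and H19Δ2 (right). Only probes of the autosomes other than chromosome 12 are shown. Squares are the 6 probes of the chromosome 11 end, the triangle is the probe of the chromosome 9 end and grey points are the 66 probes elsewhere, whose median is 0.12 in both lines.

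Position within the end was examined in steps of 250 kb over the 16 ends other than chromosome 6. The 145 probes below 3250 kb, in 15 ends, had a mean of 0.02 ± 0.14 in H19Δ1 and 0.03 ± 0.14 in H19Δ2, while the later steps ranged from -0.02 to 0.01 in H19Δ1, and from -0.02 to 0.00 in H19Δ2. All 7 bright probes lay in the first step, and without them its other 138 probes averaged 0.01 ± 0.13 and 0.01 ± 0.13. The first probe of each end was at 0.3 or more in 2 of 17 ends in H19Δ1, on chromosomes 3 and 9, where 1.18% of all probes of these autosomes were. It was so in 3 of 17 ends in H19Δ2, on chromosomes 4, 6 and 9, where 1.41% of all probes were. On chromosome 3 it read 0.34 in H19Δ1 and 0.21 in H19Δ2, and on chromosome 4 it read -0.05 and 0.38. Only the chromosome 9 probe was past 0.3 in both lines.

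No other end held a segment border in either line. In the 15 ends without a border in H19Δ2 the first segment of the chromosome ran from the first probe over at least 3.99 Mb, with means between -0.06 on chromosome 5 and 0.01 on chromosome 7. In H19Δ1 the first segments of the same 15 chromosomes ran over at least 4.91 Mb, with means between -0.02 on chromosome 3 and 0.02 on chromosome 7. Gaps over 50 kb between neighbouring probes made up 1.93% of the distances in the ends and 1.90% in the rest. The longest, 307 kb, lay on chromosome 16 after 3284525, and a change that fits inside such a gap was not measurable here.

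The files pair no gene with a probe, and no mm9 annotation was used, so genes were not placed on these regions. On the newer GRCm38.p6 build, RefSeq lists Samd9l, Hepacam2, Vps50, Calcr and Tfpi2 as the first protein-coding genes from the centromeric side of chromosome 6. Calcr encodes the calcitonin receptor and Vps50 a subunit of an endosomal tethering complex. On chromosome 11 the first is Sfi1, which encodes a centrosome protein, and on chromosome 9 it is Alkbh8, which encodes a tRNA-modifying enzyme. These names were looked up after the values were seen, and whether a gene lies inside a case was not tested.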

How the data were processed

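The authors deposited Agilent Feature Extraction 11.5.1.1 output (the submitters' notes name 10.10), with probe positions on mm9. Per the file headers, background subtraction, detrending and a linear dye normalization preceded the processed intensities. The deposited log10 ratio is Cy5 over Cy3, and the series matrix holds the same values. From the deposited intensities, log2(Cy5/Cy3) was taken without loess, outlier-flagged spots were left out, replicate spots were averaged, and the autosomal median was subtracted, 0.011 in H19Δ1 and 0.008 in H19Δ2. Segments were found by least squares with 3 or more probes each and a penalty per border of 2 times the squared noise times ln(n), n being the probes of the chromosome. Windows of 1.5 Mb with 20 or more probes outside the ends served as background. Segmentation was tried on permuted values with a first segment planted in each of 54 chromosome starts per line. It recovered 52 within 1 probe in H19Δ1 and 51 in H19Δ2, with 1 and 0 unplanted segments. Permuting removes any likeness of neighbouring probes, so bright runs as on chromosome 11 were not covered. Named items were the 2 cases, probes past 1 in size, and the 3 largest and 3 smallest differences. Ends and cases were chosen with earlier results of these data known. The number of arrays limits precision. Alternatives were normexp, other centrings, filters, thresholds and reaches. Software was R 4.3.3 with limma 3.58.1, and Python 3.11.15 with numba 0.67.0, numpy 2.4.6, matplotlib 3.10.9, pandas 2.3.3 and scipy 1.17.1.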

Additional observations from a re-analysis of the deposited data

How the results depend on the processing

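No paired analysis was possible because there was 1 array per line, and for the same reason no array could be left out. The chromosome 6 case stayed between 0.51 and 0.58 in H19Δ2 under 12 alternatives. Of 735 levels, 40 changed sign, all of them 0.0263 or less in size in the main setting, and 0 of those at 0.2 or more did. Of 663 values of single ends, 24 moved by more than the spread of windows, 9 of them with each chromosome centred on its own rest. With normexp the difference over the chromosome 6 case was 0.59, and the chromosome 11 case was 0.19 in H19Δ1. The share of probes past 0.3 was then 3.39% high and 1.73% low in H19Δ1 and 4.69% and 2.96% in H19Δ2. Borders were found in 0 ends of H19Δ1 and 1 of H19Δ2, on chromosome 6 but after 24 probes. With each chromosome centred on its own rest, the chromosome 6 case was 0.51 in H19Δ2 and 0.50 in the difference. As medians, the chromosome 11 case was 0.19 in H19Δ1 and 0.20 in H19Δ2, and the chromosome 6 end difference was 0.198, so 0 ends passed 0.2 in the difference. Without its highest probe, the chromosome 11 case was 0.19 and 0.24. Corrected by loess on brightness, chosen after seeing the data, it was 0.14 and 0.17. A threshold of 0.3 on the mean left 0 ends in H19Δ2 and 0 in the difference. A probe threshold of 0.2 gave 5.55% high and 6.04% low in H19Δ1, 6.91% and 5.36% in H19Δ2 and 8.01% and 6.29% in the difference. One of 0.5 gave 0.123% and 0% in H19Δ1, 1.29% and 0% in H19Δ2 and 1.36% and 0.0617% in the difference. Without the chromosome 6 end, a choice also made after seeing the data, 0.786% of probes were high in H19Δ2 and 1.31% in the difference. Keeping outlier-flagged spots gave borders in 2 ends of H19Δ1 and 2 of the difference, the added one on chromosome 15 in each. A penalty factor of 4 or 8 gave borders in 0 ends of H19Δ1 and 1 of H19Δ2, and at least 10 probes per segment gave 0 in H19Δ1. The cause of these changes was not tested. Shifts near 0.1 over a few probes are not measurable at a noise of 0.12 per probe.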
